A study of Mus musculus with 11 samples.

Results

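Progenitor cells grown from the ventricle and from the aorta of mice null for beta-sarcoglycan (KO) were compared on Agilent whole-genome arrays. They were chosen by the labels' genotype and tissue fields, which give 2 KO ventricle arrays and 2 KO aorta arrays of the 11 in the series. The other arrays held KO atrium (1 array), wild-type (WT) atrium, ventricle and aorta (1 array each) and C2C12, a mouse myoblast line included as a reference for muscle differentiation (3 arrays). The series describes the cells as mesoangioblasts, vessel-associated progenitors, and states that WT cells form beating cardiomyocytes whereas KO cells form skeletal muscle fibres. Strain, age, passage, the number of animals and whether the cells were growing or differentiating when RNA was taken are not given in the sources used here. All KO samples share the same null genotype, so genotype does not differ in the comparison of regions. Of 27567 genes with a probe, 14547 were well above background on both arrays of at least 1 of the 2 regions and are called measured.

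Skeletal muscle differentiation runs in steps. Myoblasts committed by Myod1 and Myf5 leave the cell cycle and express myogenin, and then fuse and build sarcomeres, the calcium release apparatus and the acetylcholine receptor. The Id proteins bind the partners of the MyoD family and hold this programme back in growing cells. Beta-sarcoglycan is part of the membrane complex that ties dystrophin to the matrix around muscle fibres.

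The arrays lay on 3 slides. Slide 1 carried KO ventricle, KO aorta and C2C12, slide 2 the 3 WT samples and C2C12, and slide 3 the 3 KO regions and C2C12. Each region had 1 fixed position on every slide that held it, so region and array position cannot be told apart. The share of probes well above background ran from 49.0% to 62.0% over the 11 arrays, with no saturated probe. The series speaks of biological triplicates, but the 2 KO ventricle arrays differed by 0.655 times, and the 2 KO aorta arrays by 0.743 times, what spots repeated within an array predict. The C2C12 arrays of slides 1 and 3 were as close (0.634 times), whereas KO ventricle and KO aorta differed by 4.21 to 4.57 times that noise. Each pair within the noise was therefore counted as 1 sample, and each region is 1 sample with no biological replicate.

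Levels are log2 signals relative to the array's 75th percentile and are given for slide 1 and then slide 3. Sgcb, the targeted gene, was at 2.94 and 3.03 in KO ventricle and at 2.27 and 2.42 in KO aorta. KO atrium was at 2.64, C2C12 at 2.40 to 2.82, and WT ventricle and aorta at 2.20 and 1.82. The Sgcb probe (mm8 chr5:73914512-73914571) was thus not lower on the arrays labelled KO than on those labelled WT. Where the probe lies relative to the deleted part was not given, so it does not check the labels, and the libraries are called KO or WT by their labels alone. Fewer genes were 2-fold apart between the 2 KO regions and C2C12 than between them and their WT counterparts. KO ventricle was 2-fold or more from C2C12 at 8.47% of genes and from WT ventricle at 19.2%. KO aorta was that far from C2C12 at 6.45% and from WT aorta at 17.3%. The C2C12 comparison took both slides 1 and 3, whereas each WT region had 1 array, and KO and WT arrays shared no slide. The numbers of genes also differed (13798 and 13795 for C2C12, 13467 and 12789 for WT). These shares are therefore not like for like.

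A gene was called different between the regions when it was at least 2-fold apart in the same direction on slide 1 and on slide 3. By this rule 489 genes were higher in KO ventricle (3.36% of those measured) and 586 were higher in KO aorta (4.03%). Every count of called list members below is to be read against these 2 shares. The median gene differed by -0.04 (log2, ventricle minus aorta, the sense of every difference below). Among 13693 genes well above background on all 4 arrays, the counts were 342 and 379, of which 85 and 88 were at least 4-fold apart. The differences on the 2 slides had a median SD of 0.036, so calls lie far outside the spread between arrays, which is technical. A further 135 called genes were above background in ventricle alone and 130 in aorta alone, and these have only a lower bound on their fold. That bound reached 2-fold for 78 of the 135 and 91 of the 130. The rest count as calls here but are not shown to be 2-fold apart.

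Because each region is 1 sample, spread between samples was borrowed from the 2 C2C12 samples. With that spread limma called 0 genes (0% of 14547) at an adjusted p under 0.05, and the lowest adjusted p was 0.217. At an unadjusted p under 0.05 it held 1380 genes, 801 of them called by fold. An additive limma fit of genotype and region took its spread from the 6 heart samples. It called 0 genes and held 462 at an unadjusted p under 0.05. This fit takes 1 region difference shared by KO and WT, so it does not test the KO difference by itself. C2C12 itself differed between its 2 samples by the same rule. Of 14221 genes, 454 were higher on slides 1 and 3 than on slide 2 (3.19%) and 136 lower (0.956%). The second C2C12 sample was on slide 2 alone, so a difference of culture and one of slide cannot be told apart. Of the genes called between regions, 137 higher in ventricle and 88 higher in aorta were also 2-fold higher in C2C12 of slides 1 and 3 than of slide 2. All calls below therefore describe these 2 samples.

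Dim genes depended on the background correction. With normexp, a model of spot and local background, the counts were 164 higher in ventricle and 234 higher in aorta, and with a few stray local backgrounds replaced they were 297 and 279. Among the 151 called genes named here, normexp ended 62 calls and turned the sign of Art1, Ccnd2, Myh6, Pygm, Rspo2 and Saa3. With the stray backgrounds replaced it ended 23 calls, each given below beside its gene, and turned none.

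**Figure D1:**
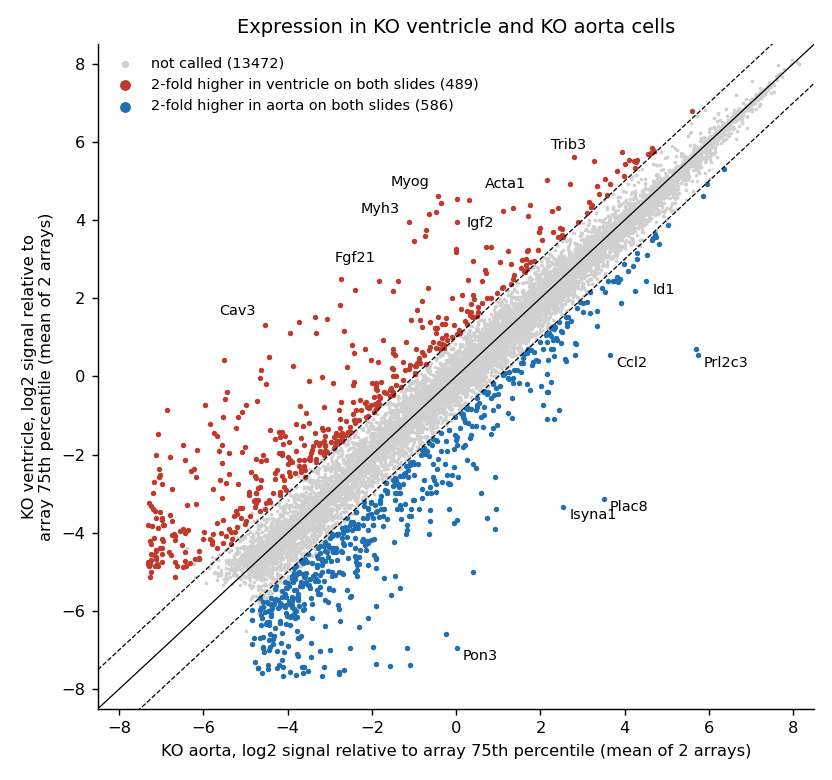
Mean log2 signal relative to the 75th percentile in KO aorta (horizontal axis) against KO ventricle (vertical axis), one point per measured gene, with called genes in colour and some of them named. Most of the 14547 genes lie near the diagonal; 489 lie above it by the 2-fold rule and 586 below it.

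Among the gene lists used, which were chosen with earlier results of these data known, the skeletal muscle lists held the most genes called higher in KO ventricle. The 5 lists joined were sarcomere, neuromuscular junction, excitation-contraction coupling, fusion and muscle energy metabolism. Of their 102 measured genes, 61 were called higher in ventricle and 2, Nebl and Kirrel3, higher in aorta. Over all measured genes the shares were 3.36% and 4.03%. The muscle genes were 61 of the 489 called higher in ventricle. The median difference was 1.44, or 1.37 with one-region genes at their bound, against -0.04 over all measured genes. In cultures, a smaller number of differentiated cells and less RNA per cell cannot be told apart. The members were also unequal between the C2C12 samples, with a median of 0.97 between slides 1 and 3 and slide 2. KO atrium lay between the 2 regions for 61 of the 63 called members. The share was 75.9% over all genes called higher in ventricle and 36.7% over all measured genes. A wide gap holds another sample more often than a narrow one, so the count is a description.

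Among the factors that start the programme, myogenin stood apart. Myog (mm8 chr1:136108708-136108767), which drives myoblasts into terminal differentiation, was at 4.60 and 4.62 in KO ventricle and at -0.45 and -0.42 in KO aorta, 33-fold apart. KO atrium was at 1.37 and C2C12 at 5.83, 5.81 and, on slide 2, 3.94. The KO ventricle arrays thus stood within the C2C12 range and the aorta arrays below both atrium and C2C12.

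Myod1, the commitment factor upstream, was at 3.05 and 3.05 in ventricle and at 2.07 and 2.12 in aorta. The arrays of the regions did not overlap, but the 1.94-fold difference missed the 2-fold rule, and KO atrium (2.82) was close to ventricle. Myf5, the other commitment factor, was at -2.17 and -2.10 against -3.51 and -3.71. Its difference of 1.48 was called, but was 0.93 and uncalled when local backgrounds were modelled by normexp with stray ones replaced. Mrln, which encodes the micropeptide myoregulin that restrains the calcium pump of the sarcoplasmic reticulum, was 3.56-fold higher in ventricle. These were the 3 called of 12 measured regulators, whose median difference was 0.51. Pax3, which marks muscle precursors of the embryo, was at -4.12 and -4.03 in ventricle and -3.98 and -3.92 in aorta. Pax7, the satellite cell factor, and Myf6, a late member of the MyoD family, were not measured.

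Many muscle promoters carry the E-box CAGCTG, which binds MyoD family dimers. The 3 windows below, of Chrng (fetal acetylcholine receptor subunit), Cav3 (caveolin-3 of the muscle membrane) and Hrc (a calcium-binding protein of the sarcoplasmic reticulum), are shown because these genes were among the largest differences and hold this motif. Each is the 250 bases before the start of the gene, from RefSeq on GRCm38.p6, 5′ to 3′ on the gene's strand, with CAGCTG in capitals.
Chrng: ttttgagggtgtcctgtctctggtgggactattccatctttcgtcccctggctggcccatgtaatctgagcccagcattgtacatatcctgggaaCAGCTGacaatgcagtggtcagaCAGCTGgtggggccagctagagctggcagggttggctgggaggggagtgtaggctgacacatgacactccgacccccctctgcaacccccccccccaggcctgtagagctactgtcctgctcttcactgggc
Cav3: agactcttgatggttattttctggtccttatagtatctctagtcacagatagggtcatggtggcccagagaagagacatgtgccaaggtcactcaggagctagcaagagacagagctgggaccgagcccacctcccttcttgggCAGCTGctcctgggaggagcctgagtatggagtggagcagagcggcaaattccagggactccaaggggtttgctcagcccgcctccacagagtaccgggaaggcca
Hrc: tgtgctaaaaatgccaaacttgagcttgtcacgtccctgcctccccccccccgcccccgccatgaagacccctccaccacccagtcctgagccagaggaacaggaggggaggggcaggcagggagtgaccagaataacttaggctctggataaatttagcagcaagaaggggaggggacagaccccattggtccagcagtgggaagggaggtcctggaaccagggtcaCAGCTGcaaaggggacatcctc

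The windows lie at chr1:87205561-87205810, chr6:112459255-112459504 and chr7:45335019-45335268, all on the plus strand. The motif begins 155 and 132 bases before the start in Chrng, 106 bases before it in Cav3 and 22 bases before it in Hrc. Both strands were searched over 300 bases, 250 before to 50 after the start, for every gene with a window. CAGCTG was present in 21 of 44 muscle-list genes called higher in ventricle that had a window (47.7%), in 32.7% of all genes called higher in ventricle, in 17.8% of those called higher in aorta and in 18.3% of all 27025 windows. The related E-box CAGGTG was in 29.5% of the muscle genes and 22.6% of all windows. The MEF2 motif was in 10 of the 44 muscle genes (22.7%) and in 2.2% of all windows. These are counts of letters and do not show binding.

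Of 41 measured sarcomere genes, 33 were called higher in ventricle and 1 higher in aorta, with a median difference of 3.81, or 2.62 with one-region genes at their bound. Between the C2C12 samples the same genes differed by a median of 1.49. Myh3, the embryonic myosin heavy chain, was at 3.94 and 3.94 in KO ventricle and at -1.12 and -1.14 in KO aorta, 33.6-fold apart. KO atrium was at 0.93, and the C2C12 arrays at 5.37, 5.38 and 3.32. As with Myog, ventricle lay inside the C2C12 range and aorta below every other KO or C2C12 array.

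Other thick-filament genes behaved alike. Mybph, a myosin-binding protein, was 37.5-fold higher in ventricle. Myh7, the slow and cardiac myosin heavy chain, was 35-fold higher. Myom3, an M-band protein that cross-links thick filaments, was 24.6-fold higher.

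The troponins, which make contraction depend on calcium, were similarly apart. The fast isoforms Tnnc2, Tnni2 and Tnnt3 were 28.2-, 25.4- and 23.7-fold higher in ventricle. Acta1, skeletal alpha-actin, was expressed in both regions, at 4.37 and 4.39 against 1.73 and 1.76, or 6.21-fold apart, with atrium at 3.0.

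Several genes of the sarcomere and its assembly were above background in ventricle and not well above it in aorta. Smpx, a small protein of the costamere, was at least 24.1-fold higher in ventricle, and Unc45b, the chaperone that folds myosin, at least 21.6-fold. Klhl41, a stabiliser of thin filaments, was at least 15.6-fold higher and Myoz2, a Z-disc calcineurin-binding protein, at least 11.5-fold. Not all of the sarcomere list was detected: Myh2, Myh4, Mybpc1, Mybpc2, Myot, Lmod2 and Synm were above background on no array of either region. The 1 member called higher in aorta, the Z-disc protein nebulette (Nebl), was dim, at -4.27 and -4.34 against -5.47 and -5.39. It was above background on 1 ventricle array, and its difference of -1.12 became -0.34 after normexp with stray backgrounds replaced.

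At the neuromuscular junction, 6 of 11 measured genes were called higher in ventricle and none higher in aorta, with a median of 1.13. Chrng was at 2.19 and 2.24 in ventricle and at -2.38 and -2.42 in aorta, 24.5-fold apart, although a second probe for it gave a log2 difference of 2.38 rather than 4.61. Chrna1, the receptor's alpha subunit, was 3.49-fold higher in ventricle and abundant in both, at 5.74 and 5.72 against 3.90 and 3.95. The delta subunit Chrnd was 6.89-fold higher and Dok7, which activates the kinase that gathers receptors, 4.87-fold. Chrnb1 (2.71-fold) and the receptor-clustering protein Rapsn (2.19-fold) differed least among the called genes. Every called member was higher in ventricle.

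Of 21 measured genes of excitation-contraction coupling, 11 were called higher in ventricle and none higher in aorta, with a median of 1.20. Cav3 (mm8 chr6:112438522-112438581) was at 1.30 and 1.33 in KO ventricle and at -4.49 and -4.60 in KO aorta, 58-fold apart. KO atrium was at -2.02 and C2C12 at 2.98, 3.03 and 1.74. Aorta was the lowest of these arrays and ventricle stood just under the C2C12 range. Hrc was 28.2-fold higher in ventricle and Cacna1s, the voltage sensor of the T-tubule, 23.5-fold. Casq2 (calsequestrin) and Trdn (triadin), partners in the calcium store, were 21.6- and 19.9-fold higher. Stac3, which couples the voltage sensor to the release channel, was 6.19-fold higher.

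Among 16 measured genes of muscle energy metabolism, 8 were called higher in ventricle and none in aorta, with a median of 0.97, or 0.55 with bounds. Myoglobin (Mb) was at 1.54 and 1.51 in ventricle and at -3.26 and -3.42 in aorta, 29.2-fold apart. Muscle creatine kinase (Ckm) was at least 15.5-fold higher, and the muscle cytochrome oxidase subunit Cox8b at least 5.36-fold. The subunit Cox6a2 was 3.40-fold higher in ventricle, and here KO atrium, at -2.38, was lower than both ventricle (1.27 and 1.24) and aorta (-0.52 and -0.51). The calls for Art1, a surface ADP-ribosyltransferase, and Pygm, muscle glycogen phosphorylase, rested on dim signals. Their differences of 3.15 and 2.30 were 0.93 and 0.32 after normexp with stray backgrounds replaced.

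Fusion and adhesion genes differed less as a group, with 3 of 13 called higher in ventricle, 1 in aorta and a median of 0.13. Myomaker (Mymk), a membrane protein needed for myoblast fusion, was 9.67-fold higher in ventricle, at 0.78 and 0.81 against -2.49 and -2.46. M-cadherin (Cdh15) was at 5.56 and 5.52 against 4.08 and 4.11, and the laminin receptor subunit Itga7 was 2.38-fold higher. Kirrel3, an adhesion protein, was 2.41-fold higher in aorta, a call lost after normexp with stray backgrounds replaced (-0.98).

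**Figure D2:**
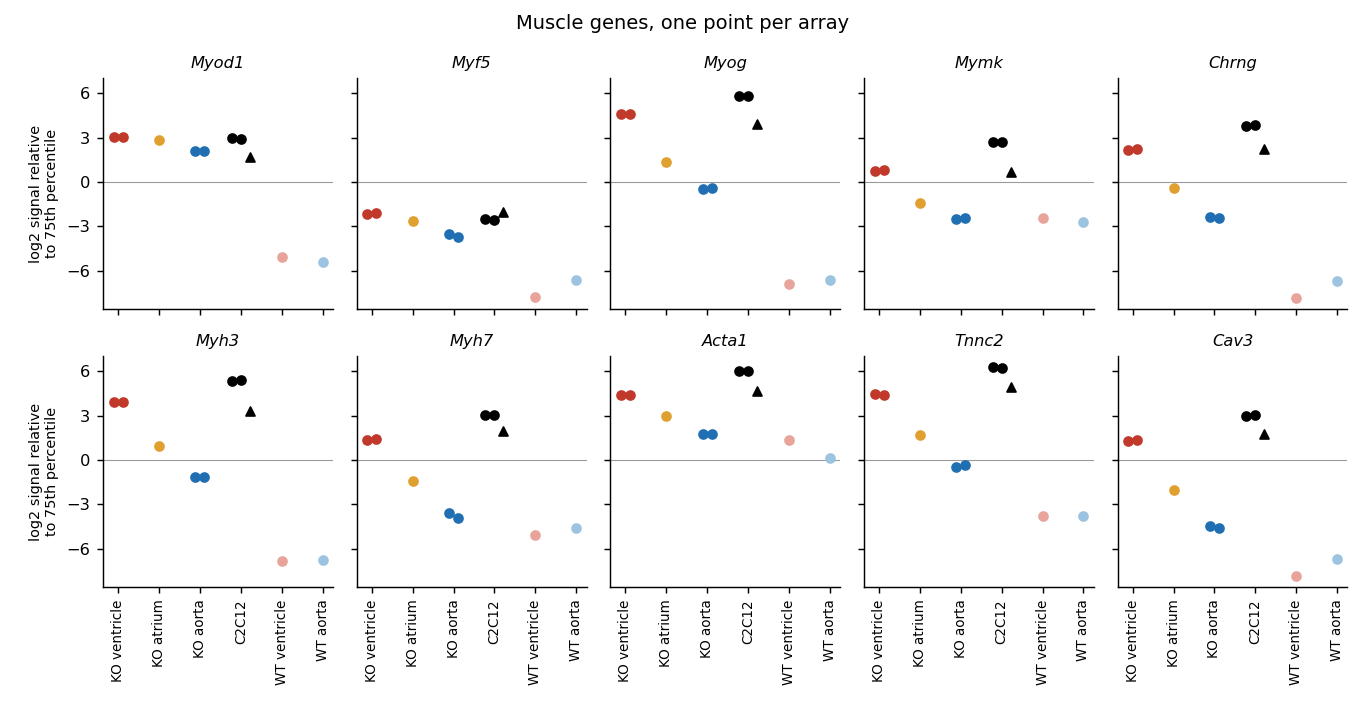
Log2 signal relative to the 75th percentile for muscle genes, one point per array, with samples on the horizontal axis and the C2C12 array of slide 2 as a triangle. In each panel both KO ventricle points lie above both KO aorta points, by 5.04 for Myog and 5.86 for Cav3, while Myod1 differs by 0.96.

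KO ventricle did not reach the levels of C2C12 of slides 1 and 3 for most of these genes. Of the 61 muscle genes called higher in ventricle, 51 were lower there than in C2C12 of slides 1 and 3, and 26 were lower than in C2C12 of slide 2. The 6 skeletal myocyte markers (Myh3, Myh8, Acta1, Ckm, Mylpf and Tnnc2) averaged 2.29 on both ventricle arrays, -0.29 in atrium and -2.10 and -1.99 in aorta. They averaged 4.53 and 4.52 in C2C12 of slides 1 and 3 and 3.13 in that of slide 2. All 6 were called higher in ventricle, with a median of 4.51. How far the share of differentiated cells accounts for other differences between the regions was not tested.

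The genes of the dystrophin and sarcoglycan complex were mostly alike in the 2 regions, with a median difference of 0.24 over 19 measured genes. None was called higher in aorta, and all the calls were higher in ventricle. Cav3, described above, is also on this list and has its largest difference. Sgca, the alpha subunit found in muscle, was at 0.01 and -0.01 in ventricle against -1.53 and -1.48 in aorta (2.85-fold) and was called. Sgce, the widely expressed epsilon subunit, was at 3.67 and 3.73 in ventricle and 3.47 and 3.45 in aorta, and Sgcd was at -1.97 and -2.0 against -2.02 and -2.04. Sgcb was 1.56-fold apart, short of the rule.

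Among 16 measured cardiomyocyte genes, 9 were called higher in ventricle, 1 higher in aorta, and the median was 1.08. Several of the 9 are also expressed in developing or slow skeletal muscle: Myl4, the embryonic light chain (27.7-fold), Myl3, the slow and ventricular light chain (19.2-fold), and Tnnc1, slow and cardiac troponin C (14.1-fold). A second Myl3 probe gave a log2 difference of 0.07, so this gene's 2 probes disagree. Csrp3, a muscle LIM protein, was at least 9.47-fold higher in ventricle. Myh6, the alpha cardiac myosin heavy chain, was dim, at -3.41 and -3.52 in ventricle and not well above background in aorta or atrium, and at least 2.89-fold higher. Myl7, the atrial light chain, was the 1 member called higher in aorta, at least 2.72-fold, at -3.96 and -3.93. Its call was lost after normexp with stray backgrounds replaced (-0.98). Myl2, the ventricular light chain, and Ryr2, the cardiac release channel, were above background on neither region. Myl2 was above background on 0 of the 11 arrays, WT ventricle included, so it does not check the region on the label.

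Cardiac transcription factors were mostly alike, with 2 of 15 called and a median of 0.24. Isl1, a LIM-homeodomain factor of the second heart field, was at -2.14 and -2.13 in KO ventricle and not well above background in KO aorta, at least 7.27-fold higher in ventricle. Atrium was at -3.67, between the 2. Neither C2C12 (-5.50, -5.66 and -5.12) nor the WT regions reached the ventricle level. Hey1, a Notch target and repressor, was 2.21-fold higher in ventricle.

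The core factor Nkx2-5 was at -0.30 and -0.41 in ventricle, -1.05 and -1.07 in aorta and -1.38 in atrium, a 1.64-fold difference that was not called. Gata4, another core factor, was at -3.94 and -3.75 against -4.16 and -4.20. Irx4, which is specific to the ventricle in the heart, was at -4.86 and -5.19 in ventricle and -4.75 and -5.06 in aorta, overlapping ranges near background. Tbx5 was not measured. None of these cardiac factors was called between the 2 regions.

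Genes of the amino acid and endoplasmic reticulum stress response were another group mostly higher in ventricle. Of 20 measured, 7 were called higher in ventricle and 1, Sdf2l1, higher in aorta, with a median of 0.83. Part of this response is switched on by the factor ATF4, which binds a composite CCAAT and ATF element in its targets. Between the C2C12 samples this list ran the other way, with a median of -0.48 for slides 1 and 3 against slide 2. The muscle lists and this list thus differed in sign between the C2C12 samples.

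The 5 promoter windows below are shown because ATF4 target genes commonly hold TGATGNAA, read on either strand, and these genes were called higher in ventricle. The first 4 encode a stress-induced factor, a glutathione-degrading enzyme, the cystine transporter and a chromatin-associated stress protein. The last encodes a secreted hormone of the FGF family from the growth factor list. They are 250 bases before the start, RefSeq GRCm38.p6, 5′ to 3′ on the gene's strand, with the motif or its reverse complement in capitals.
Atf3: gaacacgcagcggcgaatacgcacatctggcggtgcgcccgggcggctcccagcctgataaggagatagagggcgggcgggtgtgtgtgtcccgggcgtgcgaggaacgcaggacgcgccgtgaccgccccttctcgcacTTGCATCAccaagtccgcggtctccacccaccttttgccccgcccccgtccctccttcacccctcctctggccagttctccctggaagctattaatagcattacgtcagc
Chac1: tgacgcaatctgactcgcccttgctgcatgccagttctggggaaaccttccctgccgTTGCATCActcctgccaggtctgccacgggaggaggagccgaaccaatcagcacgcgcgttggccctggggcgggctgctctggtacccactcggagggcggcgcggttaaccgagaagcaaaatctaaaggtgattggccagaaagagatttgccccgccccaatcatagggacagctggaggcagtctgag
Slc7a11: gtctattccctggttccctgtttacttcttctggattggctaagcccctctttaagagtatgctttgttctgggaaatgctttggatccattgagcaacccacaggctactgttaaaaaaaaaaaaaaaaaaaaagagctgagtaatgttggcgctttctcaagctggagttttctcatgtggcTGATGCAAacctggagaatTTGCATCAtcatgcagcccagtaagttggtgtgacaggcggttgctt
Nupr1: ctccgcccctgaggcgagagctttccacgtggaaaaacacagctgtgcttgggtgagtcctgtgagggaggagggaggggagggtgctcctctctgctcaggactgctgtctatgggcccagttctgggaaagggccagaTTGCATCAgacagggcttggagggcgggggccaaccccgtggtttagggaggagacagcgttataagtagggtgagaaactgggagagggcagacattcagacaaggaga
Fgf21: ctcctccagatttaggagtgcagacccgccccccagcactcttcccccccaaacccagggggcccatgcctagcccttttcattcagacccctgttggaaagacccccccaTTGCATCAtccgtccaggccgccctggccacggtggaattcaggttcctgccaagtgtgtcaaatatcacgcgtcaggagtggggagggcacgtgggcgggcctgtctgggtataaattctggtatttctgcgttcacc

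The windows lie at chr1:191183334-191183583 (minus strand), chr2:119350992-119351241 (plus), chr3:50443614-50443863 (minus), chr7:126625471-126625720 (minus) and chr7:45615491-45615740 (minus). The match begins 110 bases before the start in Atf3, 193 in Chac1, 66 and 47 in Slc7a11, 110 in Nupr1 and 139 in Fgf21. TGATGNAA was in 5 of the 6 called response genes with a window, all but Ddit3. It was in 8.2% of genes called higher in ventricle, in 3.0% of those called higher in aorta and in 4.5% of all windows. A match is a description of the letters.

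Atf3 was at 1.39 and 1.47 in KO ventricle and at -1.09 and -1.04 in KO aorta, 5.65-fold apart, with atrium at -0.51. Trib3, a pseudokinase induced in the same response, was at 5.53 and 5.51 against 3.29 and 3.27 (4.71-fold). For both genes ventricle lay above every other KO, WT and C2C12 array, and for Trib3 the atrium, at 3.24, was level with aorta. Ddit3, which encodes the stress factor CHOP, was at 3.0 and 2.86 against 1.10 and 0.99 (3.69-fold). Slc7a11 was 3.42-fold, Chac1 2.36-fold, the amino acid transporter Slc7a5 2.34-fold higher, and Nupr1 was called with a difference of 1.10. Sdf2l1, a chaperone partner in the endoplasmic reticulum, was instead 2.48-fold higher in aorta.

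Growth factor genes were divided between the regions. Of 29 measured genes of IGF, FGF, HGF and PDGF signalling, 6 were called higher in ventricle and 3 higher in aorta, with a median of -0.07. Fgf21 was at 3.46 and 3.47 in KO ventricle and at -1.0 and -1.0 in KO aorta, 22.1-fold apart. Atrium was at 0.42, and ventricle lay above all other arrays.

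Igf2, an imprinted growth factor of embryonic tissue and differentiating muscle, was at 3.97 and 3.95 in ventricle and at 0.02 and 0.01 in aorta, 15.4-fold apart. Atrium was at 1.07 and C2C12 at 5.06, 5.02 and 3.12. H19, the non-coding RNA of the same imprinted locus, was 7.23-fold higher in ventricle, at 5.02 and 4.99 against 2.16 and 2.15, and atrium (4.26) was nearer ventricle. Igfbp5, an IGF-binding protein, was 6.99-fold higher in ventricle and Igfbp3 2.90-fold. Spry1, an inhibitor of receptor tyrosine kinase signalling, was 4.56-fold higher.

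Aorta had more of the epithelial growth factor Fgf7, at 0.68 and 0.75 against -3.65 and -3.60 in ventricle, 20.2-fold apart. Atrium, at -1.48, lay between, and the WT regions were higher than either, at 4.08 and 3.86. The receptor Fgfr2 and the inhibitor Spry4 were called higher in aorta by 3.07- and 2.41-fold, but both calls were lost after normexp with stray backgrounds replaced (-0.84 and -0.49). Spry4 was above background on 1 of the 2 ventricle arrays.

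Notch pathway genes were likewise divided, with 4 of 16 called higher in ventricle, 2 in aorta and a median of 0.01. Heyl, a target gene, was 8.99-fold higher in ventricle, at 3.19 and 3.16 against 0.02 and -0.01. The ligand Dll1 was 7.68-fold and the receptor Notch3, which is typical of pericytes, 2.22-fold higher in ventricle. The 2 calls in aorta, the glycosyltransferase Lfng and the non-canonical ligand Dlk1, were lost after normexp with stray backgrounds replaced (-0.79 and -0.98), and a second Lfng probe gave -0.65. Of 19 Wnt genes, 3 were called higher in ventricle and 2 in aorta. Fzd4, a Wnt receptor, was 3.34-fold higher in ventricle, and Rspo2, an enhancer of Wnt signalling, was 3.48-fold higher. The calls of Rspo2 and the ligand Wnt9a in ventricle, and of the ligand Wnt2 and the inhibitor Nkd2 in aorta, were lost under the same correction (1.06, 0.92, -0.62 and -0.47).

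Of the genes higher in aorta, those with the largest differences belonged to no single list. Plac8 (mm8 chr5:100794153-100794212), a small cysteine-rich protein, was at 3.47 and 3.53 in KO aorta and at -3.17 and -3.10 in KO ventricle, 99.8-fold apart. Atrium was at -0.29 and C2C12 at -3.58, -3.56 and -2.42. Aorta stood above all other KO and C2C12 arrays, and neither WT ventricle nor WT aorta was above background.

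Isyna1 (mm8 chr8:73526155-73526214), which makes inositol phosphate from glucose phosphate, was at 2.54 and 2.53 in aorta and at -3.18 and -3.52 in ventricle, 59.3-fold apart. Here ventricle was the exception, since atrium was at 1.44 and C2C12 at 2.95 to 2.99, although the WT regions were also low. The placental prolactin relatives Prl2c3 and Prl2c5 were 36.3- and 31.8-fold higher in aorta, but these are near-identical copies whose probes may cross-hybridise. Gsta1 and Gsta2, glutathione transferases with the same limitation, were 11.3- and 12.9-fold higher.

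The next genes by size of difference were of several kinds. The chemokine receptor Cxcr6 was 28.1-fold higher, Ociad2 20.2-fold and the cation channel Trpv4 12.1-fold. The matrix protein Smoc1 was 10.4-fold, the integrin subunit Itgb7 9.92-fold, the protease inhibitor Slpi 9.44-fold and the adaptor Sh2d1b1 9.23-fold higher. For each of these 7 genes atrium lay between the regions, as it did for 71.0% of all genes called higher in aorta. The 7 were named for the size of their differences, and a wide gap holds another sample more often.

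Some genes were above background in aorta and not well above it in ventricle. Pon3, a lactonase of the paraoxonase family, was at least 42.2-fold higher in aorta, at 0.00 and 0.03, and atrium was at -0.23, close to aorta. Sgsm1, a modulator of small G proteins, was at least 35.7-fold higher, the nuclear body protein Sp110 at least 19.7-fold and the NKG2D ligand Raet1e at least 18.5-fold. Cthrc1, a secreted collagen-triple-helix protein, was at least 14.2-fold higher, Adam23 and Rnf183 at least 11.2-fold each, and P3h3, a collagen prolyl hydroxylase, at least 10.7-fold. Cthrc1 and Rnf183 were not above background in atrium, whereas Adam23 and P3h3 were.

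The converse group, above background in ventricle alone, also held genes outside the fixed muscle lists. Fndc5, the precursor of irisin, was at least 42.4-fold higher in ventricle, Gprc5c, an orphan receptor, at least 19.3-fold and Abra, an actin-binding protein of striated muscle, at least 17.7-fold. A second Gprc5c probe gave a log2 difference of 2.03 against 5.24. Pgm5, a relative of phosphoglucomutase at muscle adhesion sites, was at least 17.2-fold, Smim5 at least 13.6-fold and Ppfia4 at least 12.8-fold higher. Klf15, a metabolic transcription factor, was at least 8.68-fold higher. Tmem182, a muscle membrane protein measured in both regions, was 30.5-fold higher in ventricle.

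Chemokines and cytokines were mostly higher in aorta, with 8 of 23 measured genes called there, 2 called in ventricle and a median of -0.68. Ccl2, which attracts monocytes, was at 3.64 and 3.66 in KO aorta and at 0.55 and 0.54 in KO ventricle, 8.59-fold apart. Atrium was at 2.59, while C2C12 was at 5.20, 5.17 and 3.65 and WT ventricle and aorta at 4.98 and 5.50. KO ventricle was thus the lowest of these samples. Its neighbour Ccl7 was 10.6-fold higher in aorta. Cxcl12, a homing signal for progenitors, was 3.68-fold, Il1rl1, the receptor of interleukin-33, 3.44-fold and Cx3cl1 3.0-fold higher in aorta. The call of Ccl8, at least 2.23-fold, was lost after normexp with stray backgrounds replaced (-0.45). In ventricle, the acute-phase genes Ptx3 (4.27-fold) and Saa3 (at least 2.15-fold) were called, but another of the 3 Ptx3 probes gave 0.33 and Saa3 was 0.45 with that correction. Among 19 interferon-stimulated genes, 0 were called in either direction.

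The Id genes, targets of BMP signalling, were higher in aorta. Id1 was at 4.57 and 4.46 in KO aorta and at 2.51 and 2.40 in KO ventricle, 4.16-fold apart, with atrium at 3.70. Id3 was 2.49-fold and Id2 2.42-fold higher in aorta. For all 3, KO ventricle was the lowest sample, although C2C12 of slide 2 also lay well below C2C12 of slides 1 and 3 (2.99 against 4.73 and 4.68 for Id1). Follistatin (Fst), which binds activins and myostatin, was the 1 gene of the list called higher in ventricle, at -2.09 and -2.05 against -3.97 and -4.02. Over 25 measured genes of TGF-beta and BMP signalling the median was -0.26.

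Cell cycle genes leaned to aorta, with 5 of 42 called there, 1 in ventricle and a median of -0.22. With normexp the median was 0.07 and 1 call in aorta was left. With stray backgrounds replaced the median was -0.18, with 5 called in aorta and 0 in ventricle. Ccne2, cyclin E2 of the entry into DNA synthesis, was at 0.94 and 1.06 in aorta and at -0.71 and -0.79 in ventricle, 3.36-fold apart. Ung (a DNA repair glycosylase), Ccnd1 (cyclin D1), Ccne1 (cyclin E1) and Cdc6 (a licensing factor) were 2.61-, 2.58-, 2.44- and 2.42-fold higher in aorta. For Ccne1, Ccne2 and Cdc6 atrium was level with or above aorta, so ventricle was the low region. Ccnd2, at least 3.03-fold higher in ventricle and dim, lost its call after normexp with stray backgrounds replaced (0.70).

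Of 19 inhibitors and p53 targets, 2 were called higher in ventricle and 1 in aorta, with a median of 0.32. Cdkn1a, the p21 inhibitor that accompanies cell cycle exit in muscle, was at 3.25 and 3.23 in ventricle, 1.95 and 1.94 in aorta and 2.19 in atrium (2.44-fold). Gadd45a, a stress-induced growth-arrest gene, was 5.29-fold higher in ventricle, at 4.10 and 4.13 against 1.72 and 1.70. Perp, a membrane protein of epithelial junctions, was called higher in aorta, at -1.59 and -1.51 against -5.79 and -5.39, and only 1 of the 2 ventricle arrays was above background, so no fold is given.

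Immediate early genes differed in both directions. Fos was 2.39-fold higher in ventricle, and Fosl1, Egr2 and Egr3 were 2.85-, 2.53- and 2.26-fold higher in aorta. These were the 4 called of 19, with a median of -0.10. All 19 genes of hypoxia and glycolysis were measured and 0 were called, with a median of 0.19.

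**Figure D3:**
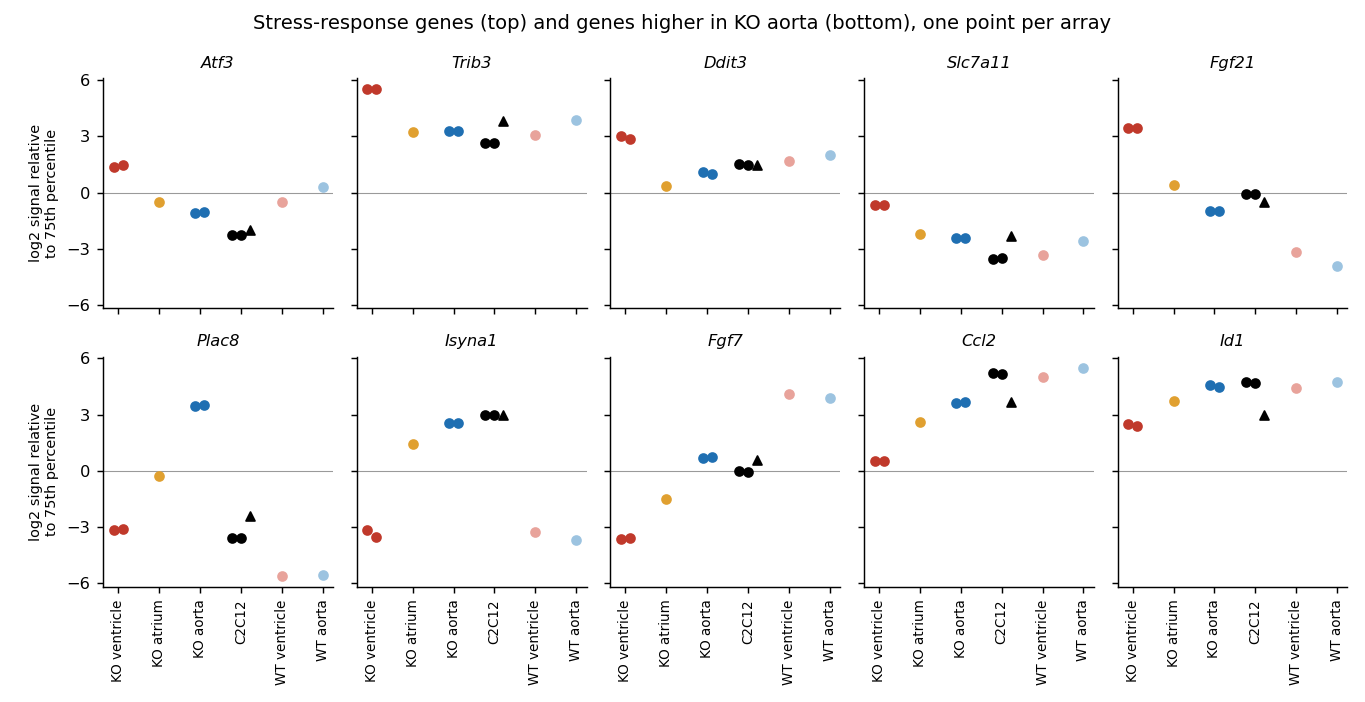
Log2 signal relative to the 75th percentile of stress-response genes (upper panels) and genes higher in KO aorta (lower panels), one point per array, samples on the horizontal axis and C2C12 of slide 2 as a triangle. KO ventricle is the highest sample in each upper panel, by 4.46 over KO aorta for Fgf21, and KO aorta exceeds KO ventricle by 6.64 for Plac8.

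Matrix genes were called in both directions, with 4 of 42 higher in ventricle, 8 higher in aorta and a median of 0.08. Periostin (Postn), a matricellular protein of fibroblasts, was at 2.27 and 2.25 in KO ventricle and at -0.64 and -0.69 in KO aorta, 7.59-fold apart, with atrium (2.81) above both. The small proteoglycans Ogn and Dcn were 4.58- and 2.50-fold higher in ventricle and the protease Mmp11 2.64-fold. In aorta, Tgfbi, a secreted adhesion protein, was at least 8.47-fold higher, and the crosslinking enzyme Loxl2 8.39-fold. The basement membrane chains Col4a1 and Col4a2, made from 1 shared promoter region, were 4.39- and 2.36-fold higher in aorta. Has2, which makes hyaluronan, and the protease inhibitor Timp3 were 2.29- and 2.25-fold higher. Second probes gave -1.94 rather than -3.07 for Loxl2 and -2.48 rather than -1.20 for Has2. Atrium was above both regions for Has2 (4.14) and Timp3 (5.01), and the Timp3 call was lost when arrays were scaled by the median (-1.08, with 1 slide short of the rule).

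Markers of pericytes and progenitors were called in a few cases. Pdgfrb, a pericyte receptor, was at 3.63 and 3.63 in ventricle and 3.96 and 4.0 in aorta. Anpep, the surface peptidase CD13, was at 1.11 and 1.06 against 1.88 and 1.77, and neither was called. Of 9 measured pericyte and mesoangioblast markers, against 3.36% of all measured genes called in ventricle and 4.03% in aorta, Notch3 was called in ventricle and Pdgfra in aorta, the latter with a difference of -0.86 after normexp with stray backgrounds replaced. Of 10 progenitor surface markers, 2 were called, both in aorta: Ly6a (Sca-1) was 4.61-fold and Cd24a 4.37-fold higher.

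Smooth muscle genes, which would mark the wall of the aorta, were not consistently higher there. Of 11 measured, 2 (Pgm5 and Synpo2) were called in ventricle and calponin (Cnn1) in aorta, 2.18-fold, a call lost when arrays were scaled by the median (-1.04). Acta2 was at 7.21 and 7.20 in ventricle and 6.66 and 6.61 in aorta, and Myh11, the defining smooth muscle myosin, was not measured. The 4 measured smooth muscle markers averaged 3.72 and 3.75 in ventricle, 3.74 and 3.72 in aorta and 4.84 in atrium.

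Signals of other cell types were low. None of the 7 endothelial markers (Pecam1, Cdh5, Kdr, Tek, Tie1, Emcn and Erg) was measured in either region, although Flt1, a VEGF receptor from a longer list, was 4.75-fold higher in aorta. Of 7 blood and macrophage markers 3 were measured, averaging -4.53 and -4.60 in ventricle and -3.88 and -4.17 in aorta, and none was called. The epithelial keratins Krt8 (a difference of -2.34) and Krt19 (-1.20) were called higher in aorta but were dim, each above background on 1 of the 2 ventricle arrays, and the Krt19 call was lost after normexp with stray backgrounds replaced (-0.47). Among positional transcription factors 3 of 29 were called (Pitx3 in ventricle, Foxd1 and Dlx2 in aorta). Over all measured genes 3.36% were called in ventricle and 4.03% in aorta. All 3 calls were lost with the same normexp correction (0.79, -0.79 and -0.98). Fabp4, an adipocyte lipid carrier called higher in aorta, lost its call in the same way (-0.32).

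**Figure D4:**
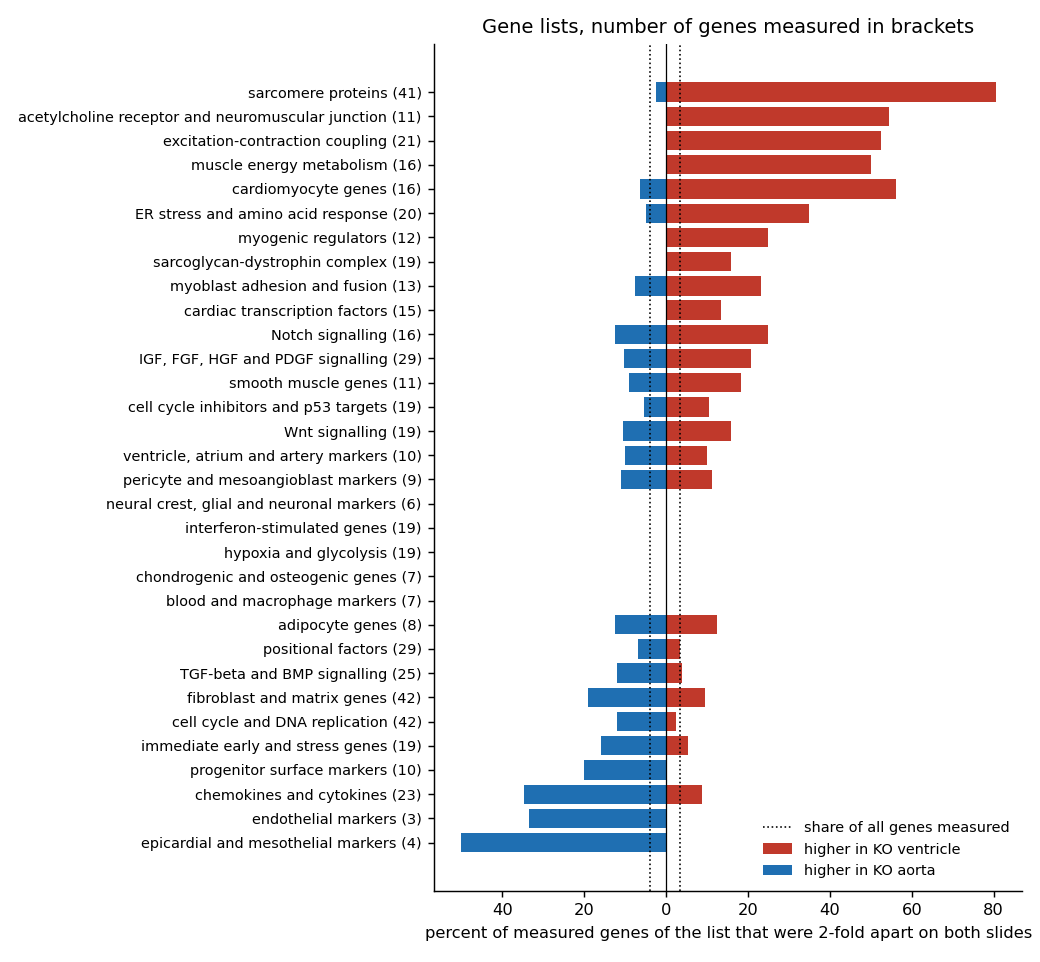
Percent of each gene list's measured genes that were 2-fold apart on both slides (horizontal axis), higher in KO ventricle to the right and in KO aorta to the left, with the number measured in brackets and the share of all measured genes (3.36% and 4.03%) as dotted lines. Sarcomere genes reach farthest to the right (33 of 41), and chemokines and cytokines, with 8 of 23, are the longest bar to the left among lists with over 10 genes measured.

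KO atrium, measured once, on slide 3, mostly lay between. Its level fell between ventricle and aorta for 75.9% of genes called higher in ventricle and for 71.0% of those called higher in aorta, against 36.7% of all measured genes. The calls use the ventricle and aorta arrays only, but a wide gap holds another sample more often than a narrow one, so these shares are a description. Among called genes above background on all 4 arrays (342 and 379), the atrium stood, on the scale from aorta to ventricle, at a median of 0.29 of the way for genes higher in ventricle and 0.50 for those higher in aorta. Among 13284 genes on slide 3, 770 were at least 2-fold apart between ventricle and aorta, 612 between ventricle and atrium and 404 between aorta and atrium. Atrium was thus nearer aorta than ventricle.

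The WT regions, 1 array each, were 2-fold apart in the same direction at some of these genes. Of the 241 genes higher in KO ventricle that were above background on both WT arrays, 124 were higher in WT ventricle than in WT aorta, and 9 by 2-fold or more. Their median difference was 0.02 in WT and 1.38 in KO. Of the 373 genes higher in KO aorta, 197 were also higher in WT aorta, 46 by 2-fold or more, with medians of -0.04 in WT and -1.48 in KO. Over all 12875 genes measured in both WT samples, 6748 were higher in WT ventricle than in WT aorta. By 2-fold or more, 50 were higher in WT ventricle and 113 in WT aorta. The difference between KO and WT, tested by limma with the borrowed spread, passed an adjusted p of 0.05 for 0 genes, held 991 at an unadjusted p under 0.05, and had a lowest adjusted p of 0.477.

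Chromosome 15 as a whole was lower in KO ventricle than in KO aorta. Only genes well above background on all 4 arrays were used here, placed by the probes' mm8 positions. The 593 such genes on chromosome 15 had a median difference of -0.29 (-0.30 on slide 1 and -0.29 on slide 3). Of them, 82.0% were lower in ventricle. The 12993 genes on the other chromosomes had a median of -0.03, with 54.3% lower in ventricle, and no other chromosome's median was outside -0.06 to 0.01. The difference ran along the chromosome, with medians of -0.22, -0.23, -0.32 and -0.31 in 4 successive groups of its genes by position. Against atrium, the median was -0.23 for ventricle and 0.04 for aorta. Against C2C12, ventricle was at -0.11 and aorta at 0.15. Both values lay within the range of the other chromosomes, -0.13 to 0.21 for ventricle and -0.09 to 0.25 for aorta. Chromosome 15 thus does not stand out against C2C12. Between WT ventricle and WT aorta the median on this chromosome was 0.01 over 531 genes. Of the 13693 genes above background on all 4 arrays, 379 were called higher in aorta, 49 of them on this chromosome. In the same set 342 were called higher in ventricle, 8 of them on this chromosome.

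**Figure D5:**
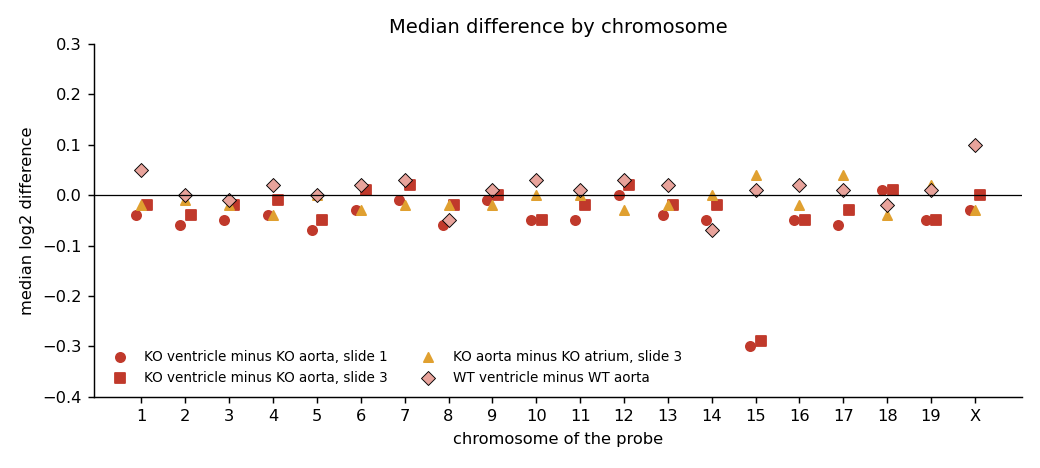
Median log2 difference of the measured genes (vertical axis) by chromosome of the probe (horizontal axis), for KO ventricle minus KO aorta on slide 1 (circles) and slide 3 (squares), KO aorta minus KO atrium (triangles) and WT ventricle minus WT aorta (diamonds). On chromosome 15 the circle and the square lie at -0.30 and -0.29, while the triangle (0.04) and the diamond (0.01) lie near 0.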

How the data were processed

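Members and gene lists were chosen with earlier results of these data known. Total RNA was labelled with Cy3, per the labels, and hybridised to 1-colour arrays. Per the file headers, the deposited files hold intensity per spot from Agilent Feature Extraction 9.5.3.1, background-subtracted. A deposited table of log2 values matched the log2 probe signals, before scaling, within 0.01 for 99.7% to 99.8% of probes. Scaled to the same percentile, it was run as an alternative. Control spots and outlier spots were left out, repeated spots averaged, and log2 signal was set relative to each array's 75th percentile. Each gene has 1 probe, that with the highest mean over the 4 arrays among those passing the filter. Fitting used limma 3.58.1 in R 4.3.3, checked on simulated data, with 1 residual degree of freedom from C2C12. The named genes are the 15 most different in each direction above background on all 4 arrays, the 10 with the largest bound in each direction, up to 6 called in each list per direction, and a fixed set of muscle, cardiac and sarcoglycan genes. Fold bounds set the dim region at the higher of its own signal and the lowest signal well above background. How RNA from cultures was pooled is not given in the sources used here. Of the named genes, 1 is not reported here.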

Additional observations from a re-analysis of the deposited data

Results flagged for a closer look

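Postn differed between genotypes in direction: KO ventricle exceeded KO aorta by 2.92 (log2), while WT ventricle was lower than WT aorta, with a difference of -2.13. The gap between these differences was 5.06. In the limma test of that gap, with spread borrowed from C2C12, the adjusted p was 0.575. WT ventricle was at 0.06 and WT aorta at 2.19, 1 array each.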

How the results depend on the processing

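The labels carry no replicate numbers, and the regions were paired by slide, in the 2-fold rule and in the limma fit with slide as a block. Counts are given as higher in ventricle and higher in aorta. Leaving out each KO array in turn gave 496 to 514 and 601 to 640. Scaling by the median (543 and 517) and quantile normalization (505 and 552) stayed within 1.5 times of the main counts. The deposited table (488 and 586) holds nearly the same values and was scaled alike, so it is no separate check. Requiring all 4 arrays above background gave 342 and 380, a 1.5-fold rule 1032 and 1315, and a 4-fold rule 176 and 179. With normexp the counts were 164 and 234. On KO aorta slide 1, 11 spots had a local background over 100 units above the spot, and normexp left unmeasured spots at a median of 883.5 there, or 83.6 with those backgrounds replaced. This replacement, chosen after seeing the data, gave 297 and 279. Taking every array as its own sample, limma called 3947 and 5269, with slide as a block 3818 and 5037, over 7 arrays 4135 and 5527, and over 11 arrays 5108 in all. These count technical repeats as replicates.

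For cell cycle genes normexp gave 0 and 1 with a median of 0.07, and replacement gave 0 and 5 with -0.18. Chemokines gave 1 and 5 with -0.95, and with replacement 1 in ventricle and -0.48. Stress-response genes gave 0 in aorta and 0.99. The joined muscle lists gave 33 and 1 with 0.76, with replacement 0 in aorta and 1.12. Their median was 1.57 on slide 3 alone and 1.75 as a median over probes, and median scaling left 1 in aorta. The share of called genes with atrium between was 81.2% under normexp and 81.8% with replacement. Under normexp Art1 (-0.57), Ccnd2 (-0.50), Myh6 (-0.31), Pygm (-1.0), Rspo2 (-0.08) and Saa3 (-0.74) reversed. The cause was not tested. Of 151 named genes called, 65 lost the call under at least 1 alternative, mostly normexp. The borrowed-spread fits called 0 genes under each other alternative run. In the additive limma fit, whose region difference is shared by KO and WT, 462 genes passed an unadjusted p under 0.05. Leaving out the second C2C12 sample left no residual degrees of freedom and was not run. With 1 sample per region, signal over background limits the fold of 265 called genes to bounds.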

Other observations

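Besides Postn, 7 called genes were at least 2-fold apart in the opposite direction between the WT regions, and they were chosen after their values were seen. Irgm2, an interferon-induced GTPase, and Prr32 were higher in KO ventricle and in WT aorta. Akr1c14, Ang6, Ccl9, Htra3 and Mrgprf were higher in KO aorta and in WT ventricle. The lowest adjusted p among the 8, by limma, was 0.477.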
